A study of Mus musculus with 10 samples.

Results

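The genes described here encode 9 liver enzymes that break down tyrosine and histidine. They are Tat, Hpd, Hgd, Fah and Gstz1 for tyrosine, and Hal, Uroc1, Amdhd1 and Ftcd for histidine. They were taken by gene name from a table of 19414 genes, each name matching 1 row, and all 9 passed a filter of a mean of at least 1 CPM (the reads of a gene, scaled so that the listed genes of a library total 1000000). Liver mRNA was sequenced from 10 female HET3 mice, a stock in which every animal has its own mix of inbred-strain genomes. Of these, 5 had been fed a Longevity diet (LD) and 5 a standard diet (SD), in both cases for 5 months. Their stated age is 25 months, and it is unclear whether that was reached before or after the feeding. The series title describes the Longevity diet as methionine-supplemented, and the labels used here give no composition. All mice carry the same stock genotype label, and no transgene, drug or other treatment is named.

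Phenylalanine is hydroxylated to tyrosine, and tyrosine is then broken down in the cytosol of hepatocytes. Tat moves the amino group off tyrosine, Hpd and Hgd oxidise and open the ring, Gstz1 isomerises the product, and Fah splits it into fumarate, a sugar precursor, and acetoacetate, a ketone body. Histidine loses ammonia through Hal to form urocanate, which Uroc1 and Amdhd1 turn into formiminoglutamate, and Ftcd passes the formimino group to tetrahydrofolate and leaves glutamate. Both routes are prominent in liver, and in textbooks Tat is the classic liver gene induced by glucocorticoids.

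Libraries are named by diet and mouse number, each taken as 1 mouse, and are listed below in the order LD_405, LD_406, LD_442, LD_513, LD_515 for the Longevity diet and SD_403, SD_500, SD_501, SD_502, SD_646 for the standard diet. Values after ± are standard deviations over the 5 mice of a diet. As a measure of depth, estimated from the spacing of low values, 1 CPM stood for 24.7 to 39.1 reads on LD and 36.0 to 45.7 reads on SD, so that the smallest member value rests on about 2021 reads. Albumin mRNA alone took 12.5 ± 2.07% of all CPM on LD and 7.91 ± 1.98% on SD (SD, n = 5 each), which lowers the CPM of other genes in the same library. The 9 measured hepatocyte markers summed to 159993 to 216945 CPM on LD and 113611 to 160300 CPM on SD, with none at 0 in all mice. Most of that sum was albumin (Alb), with means of 124794 CPM on LD and 79126 CPM on SD. Apoa1 was also higher on LD, at 24108 CPM against 15274 CPM on SD. Fgb and Hpx were lower on LD, at 2860 CPM against 4183 CPM and 3311 CPM against 4640 CPM on SD. Over the 9 markers the median log2 change was -0.007, and 5 of the 9 differences were negative. Markers of non-hepatocyte cells were far lower: the 8 sinusoidal endothelial markers summed to 99.996 to 203 CPM on LD and 234 to 329 CPM on SD, and the 8 stellate cell markers to 159.7 to 260.1 CPM on LD and 278 to 447 CPM on SD. The 8 Kupffer cell markers summed to 183 to 623 CPM on LD and 324 to 578 CPM on SD, and the 5 bile duct markers to 26.4 to 46.4 CPM on LD and 26.8 to 58.8 CPM on SD. The 8 lymphocyte markers summed to 2.62 to 34.3 CPM on LD and 17.6 to 43.5 CPM on SD, and the 7 neutrophil markers to 1.86 to 6.19 CPM on LD and 5.31 to 85.5 CPM on SD, with Mpo listed at 0 in every LD mouse. Fewer cells of a type and less RNA per cell cannot be told apart in such bulk tissue. The part of these shifts in the results below was not tested.

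Every member stood lower on the Longevity diet, but only Hgd passed the threshold of an adjusted p under 0.05. Of the 9 members 1 fell and 0 rose, against 1.23% of the 13157 tested genes called lower and 0.661% called higher. Unadjusted p was under 0.05 in the lower direction for 8 of 9 members, where 11.6% of all tested genes met that mark. For Hgd, Gstz1 and Uroc1, 3 of 9, all 5 LD values lay below all 5 SD values, against 3.49% of tested genes. A negative log2 change was found in 9 of 9 members and in 60.4% of tested genes. The members' median log2 change was -0.57, beside -0.11 over all tested genes. Under median-of-ratios scaling those medians were -0.46 and 0.00, and the 9 differences were still negative, with 0 members called. That scaling also changed the balance of calls over all genes, to 133 lower and 154 higher, against 162 lower and 87 higher with the values as deposited.

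**Figure D1:**
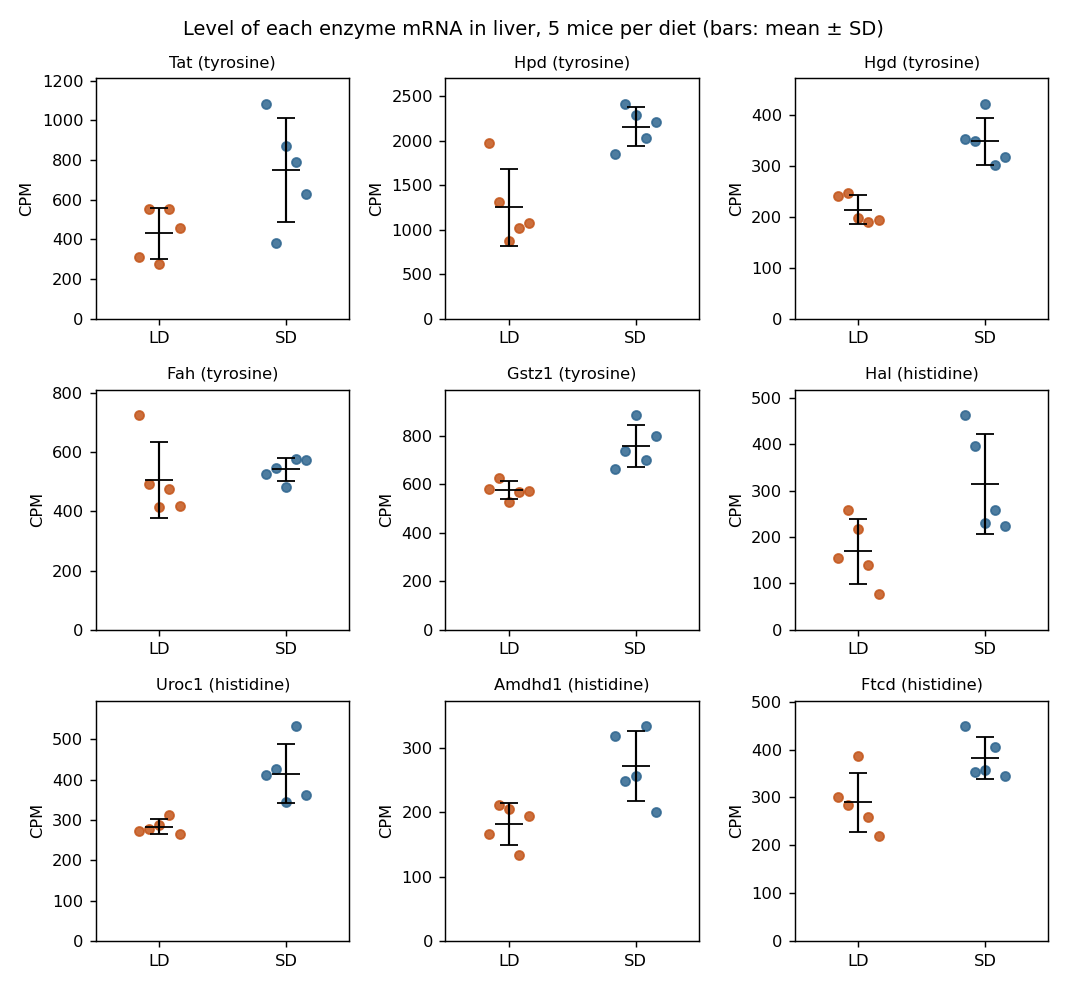
Level of each of the 9 enzyme mRNAs in CPM (vertical axes, from 0) in 5 LD mice (orange) and 5 SD mice (blue), with 1 point per mouse and bars for mean ± SD. The LD and SD points are fully apart for Hgd, Gstz1 and Uroc1, and Fah shows 1 LD mouse, at 724 CPM, above all SD mice.

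The bases before the RefSeq start of 4 members are shown because these are the called member (Hgd), the members with the largest differences in each route (Hpd and Hal) and the histidine member with the smallest (Ftcd). RefSeq windows matched all 9 members. They are on GRCm38.p6, run 5′ to 3′ on the gene's strand, and hold the 250 bases that end at the base before the start. Capitals mark matches to any of 7 short motifs that were searched on both strands, so that a match on the opposite strand appears as its reverse complement.
Hgd, chr16:37579903-37580152, plus strand: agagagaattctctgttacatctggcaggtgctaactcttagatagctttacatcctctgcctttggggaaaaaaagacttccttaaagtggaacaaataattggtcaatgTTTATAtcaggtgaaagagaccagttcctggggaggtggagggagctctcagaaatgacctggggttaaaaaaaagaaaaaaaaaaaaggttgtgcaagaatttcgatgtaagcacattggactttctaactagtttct
Hpd, chr5:123182724-123182973, minus strand: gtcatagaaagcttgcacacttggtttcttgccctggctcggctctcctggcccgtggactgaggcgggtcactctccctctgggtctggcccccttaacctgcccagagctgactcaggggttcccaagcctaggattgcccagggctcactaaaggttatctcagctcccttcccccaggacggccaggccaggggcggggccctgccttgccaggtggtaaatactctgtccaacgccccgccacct
Hal, chr10:93488518-93488767, plus strand: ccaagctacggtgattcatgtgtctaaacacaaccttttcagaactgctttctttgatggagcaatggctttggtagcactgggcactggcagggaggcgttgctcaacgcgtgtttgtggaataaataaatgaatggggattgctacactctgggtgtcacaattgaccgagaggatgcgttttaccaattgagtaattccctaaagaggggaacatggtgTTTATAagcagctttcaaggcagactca
Ftcd, chr10:76575398-76575647, plus strand: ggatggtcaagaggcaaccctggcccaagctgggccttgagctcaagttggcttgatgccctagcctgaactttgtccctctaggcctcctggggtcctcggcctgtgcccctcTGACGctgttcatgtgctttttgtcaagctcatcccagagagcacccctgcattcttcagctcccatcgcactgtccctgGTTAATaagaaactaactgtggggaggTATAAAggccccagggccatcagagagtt

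The TATA box letters TATAAA were found in 3 of 9 members (Hgd, Hal and Ftcd), and in 12.4% of the 32851 RefSeq windows of the same length. Members were counted by gene, over 10 windows because Gstz1 has 2. The shares are per window, with 27025 genes behind the 32851 windows, so the units differ. In Hgd the letters TATAAA lie on the opposite strand, beginning 139 bases before the start. In Hal they lie on the opposite strand, beginning 28 bases before the start, and in Ftcd on the gene's strand, beginning 29 bases before it. The cyclic AMP element core TGACG was present in Gstz1 and Ftcd, 2 of 9, beside 17.8% of all windows. A single match to the letters GTTAAT, in Ftcd, compares with 6.43% of windows. The glucocorticoid receptor letters AGAACA (16.1% of windows), the full cyclic AMP element TGACGTCA (1.55%), the C/EBP letters TTNCGCAA (0.67%) and the HNF4 letters CAAAGTCCA (0.384%) had no match in the windows of the members. TGACG is contained in TGACGTCA, and the other motifs were counted independently of each other. For Tat and for window 2 of Gstz1, the bases that follow the window occurred in 0 GENCODE M21 transcripts of the gene. The starts used there were therefore not matched to that annotation. These counts describe letters in a short window only.

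The tyrosine route begins with Tat (ENSMUSG00000001670.14, chromosome 8, mm39, 110717069 to 110726435, plus strand), the aminotransferase that commits tyrosine to breakdown. Tat measured 309.9, 551, 278, 553 and 455 CPM on LD, against 1082, 381, 869.7, 790.5 and 628 CPM on SD. The diets overlapped, because SD_500 lay below 3 LD mice. The mean was 429 ± 130.4 CPM on LD and 750.2 ± 263 CPM on SD, a log2 change of -0.78 (SE 0.29, 95% interval -1.397 to -0.16, adjusted p = 0.177). Its spread of 35.1% of the mean on SD was the widest of the 9 members on that diet. SD_403, which had the most Tat, also stood apart in clock genes, with the clock output gene Dbp at 1.90 CPM where the other 4 SD mice had 63.4 to 145 CPM, and the core clock gene Arntl at 21.3 CPM where they had 1.22 to 5.69 CPM. Without SD_403 the log2 difference of Tat was -0.63, and without SD_500 it was -1.003 (adjusted p = 0.355 and 0.0929). With weights per library it was -0.44 (adjusted p = 0.436). The labels give no time of collection, and its part in the Tat values was not tested.

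Hpd (ENSMUSG00000029445.14, chromosome 5, 123309870 to 123320790, minus strand) encodes the dioxygenase that makes homogentisate. It measured 1976, 1306, 876, 1013 and 1078 CPM on LD, against 1852, 2409, 2282, 2034 and 2209 CPM on SD. In 4 of 5 LD mice the level was below every SD mouse, and LD_405 lay within the SD range. Means were 1249.6 ± 435 CPM on LD and 2157 ± 218 CPM on SD, a log2 change of -0.84 (SE 0.21, interval -1.29 to -0.39), or 0.558 times the SD level, with an adjusted p of 0.0608. Leaving out LD_405 gave -1.02 and an adjusted p of 0.00848, and Hpd also passed with weights per library, the 2 of 22 alternatives in which it did. The Hpd locus overlaps Psmd9, a proteasome assembly factor gene on the other strand with a mean of 28.7 CPM. Strandedness is not stated, so how far the reads of these genes were mixed is unknown.

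Hgd (ENSMUSG00000022821.14, chromosome 16, 37400515 to 37452382, plus strand), the ring-opening homogentisate dioxygenase whose loss causes alkaptonuria in humans, was the member that fell. Its values were 242, 247, 197, 191 and 194 CPM on LD, against 353, 349, 421, 303 and 317 CPM on SD. The highest LD value was below the lowest SD value, and the standard deviation was 12.9% of the mean on LD and 13.2% on the standard diet. The means were 214 ± 27.7 CPM on LD and 349 ± 45.9 CPM on SD (log2 change -0.70, SE 0.16, interval -1.04 to -0.36, adjusted p = 0.0405). This is 0.615 times the SD level. The call was lost in 15 of 22 alternative settings, including the omission of any 1 mouse other than LD_405 or SD_502, with adjusted p up to 0.232 and a log2 difference that ran from -0.77 to -0.59.

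Gstz1 (ENSMUSG00000021033.12, chromosome 12, 87193939 to 87211497, plus strand), the maleylacetoacetate isomerase and a glutathione transferase by family, followed with a smaller difference. It measured 582, 628, 526, 569.8 and 574 CPM on LD, against 664, 735, 884, 699.7 and 798 CPM on SD. No LD mouse reached the lowest SD mouse, and the LD spread of 6.27% of the mean was the narrowest of all members on that diet. Means of 576 ± 36.1 CPM on LD and 756 ± 87.1 CPM on SD gave a log2 difference of -0.39 (SE 0.14, adjusted p = 0.180). Pomt2, an opposite-strand gene with a mean of 13.2 CPM, overlaps Gstz1.

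Fah (ENSMUSG00000030630.17, chromosome 7, 84234367 to 84255930, minus strand), whose product completes the route and whose loss causes hereditary tyrosinaemia in humans, differed least. It measured 724, 493, 414, 477 and 419 CPM on LD, against 527, 546, 483, 578 and 575 CPM on SD. LD_405 was the highest of the 10 mice while 3 of the other LD mice were below every SD mouse. Means of 505 ± 127 CPM on LD and 542 ± 39.0 CPM on SD gave a log2 difference of -0.13 (SE 0.18, interval -0.51 to 0.25, adjusted p = 0.736). Without LD_405 it was -0.27 (adjusted p = 0.332).

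The histidine route opens with Hal (ENSMUSG00000020017.15, chromosome 10, 93324630 to 93355166, plus strand), the ammonia-lyase, which had the largest log2 difference of the 9. Hal measured 156, 257, 217, 139 and 77.8 CPM on LD, against 462, 395, 231, 258 and 224 CPM on SD. LD_515 was the lowest of the 10 mice and LD_406 lay within the SD range, next to SD_502. Means were 169 ± 69.8 CPM on LD and 314 ± 108 CPM on SD, a log2 change of -0.94 (SE 0.31, interval -1.62 to -0.26, adjusted p = 0.143). SD_403 was highest here too, and the difference was -0.78 without it and -0.69 without LD_515.

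Uroc1 (ENSMUSG00000034456.16, chromosome 6, 90310266 to 90341533, plus strand), the urocanate hydratase, was the histidine member with no overlap between diets. It measured 273, 277, 288, 314 and 264 CPM on LD, against 411, 426, 345, 532 and 362 CPM on SD. The LD mice were close to each other, with a spread of 6.72% of the mean beside 17.7% on SD. The means of 283 ± 19.04 CPM on LD and 415 ± 73.6 CPM on SD gave a log2 difference of -0.54 (SE 0.16, adjusted p = 0.106).

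Amdhd1 (ENSMUSG00000015890.3, chromosome 10, 93359200 to 93375895, minus strand), the imidazolonepropionase, lies 4033 bases from Hal, with the ends of both genes facing each other. It measured 166, 211, 204, 133 and 194 CPM on LD, against 318, 249, 256, 333 and 201 CPM on SD. Among SD mice SD_646 alone lay within the LD range. The log2 difference was -0.57 (SE 0.19, adjusted p = 0.143), with means of 182 ± 32.0 CPM on LD and 272 ± 54.1 CPM on SD.

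Ftcd (ENSMUSG00000001155.14, chromosome 10, 76411482 to 76426172, plus strand), the folate-dependent enzyme that ends the route, measured 301, 283, 386, 258 and 219 CPM on LD, against 448, 353, 357, 405.9 and 345 CPM on SD. In 4 of 5 LD mice it was below every SD mouse, and LD_442 was above 3 of them. Means of 289.5 ± 62.0 CPM on LD and 382 ± 44.2 CPM on SD gave a log2 difference of -0.42 (SE 0.18, adjusted p = 0.238).

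**Figure D2:**
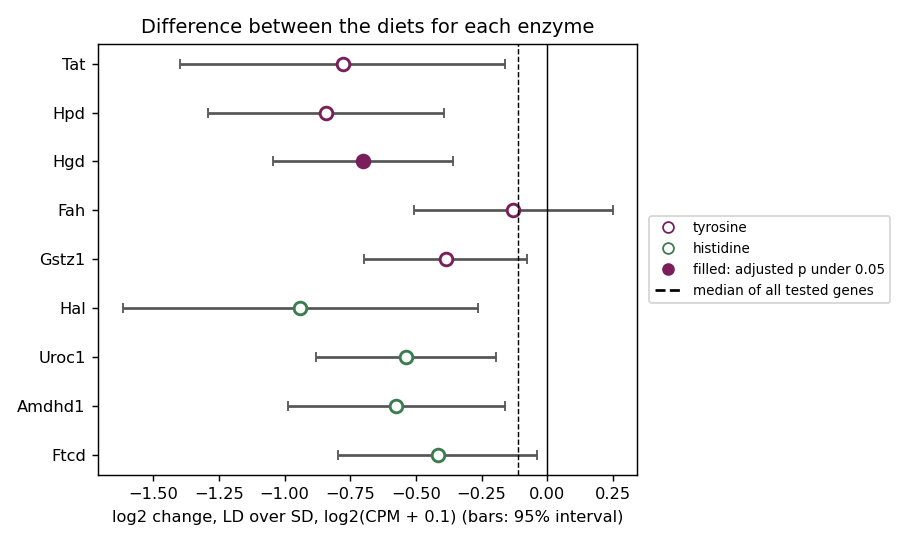
Log2 change of each member, LD over SD, on the log2(CPM + 0.1) scale (horizontal axis), with bars for the 95% interval; filled points passed an adjusted p under 0.05. All 9 points lie left of 0, between -0.94 (Hal) and -0.13 (Fah), the filled point is Hgd at -0.70, and the dashed line marks the median of all tested genes at -0.11.

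Hal, the first histidine enzyme, was compared with Ftcd, the last, and Tat, the first tyrosine enzyme, with Gstz1; neither ratio differed between the diets past the threshold. The log2 ratio of Hal to Ftcd within a mouse was -0.86 ± 0.48 on LD and -0.34 ± 0.41 on SD, a difference of -0.52 (two-sided exact permutation p = 0.111, 0.222 adjusted over 2 ratios). It ran from -1.50 to -0.14 on LD and from -0.65 to 0.16 on SD, so that the diets overlapped. Without LD_406, whose ratio was the highest on LD, the difference was -0.70 and the adjusted exact p was 0.0159. The log2 ratio of Tat to Gstz1 was -0.48 ± 0.41 on LD and -0.09 ± 0.61 on SD, a difference of -0.39 (exact permutation p = 0.286, 0.286 adjusted). That difference was -0.19 without SD_403 and -0.61 without SD_500, so that single mice moved it by more than 1.5 times. The smallest p that 5 mice against 5 can give is 0.00794, and such ratios do not depend on how a library was scaled.

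Read by mouse, the lower levels were not due to the same animals in every gene. LD_442 was lowest of the 10 in 4 members, LD_515 in 3 and LD_513 in 2, while no SD mouse was lowest in any. Over the tyrosine members the mean deviation from the 10-mouse average, in log2 units, was -0.07, -0.11, -0.59, -0.29 and -0.36 on LD, against 0.33, 0.14, 0.43, 0.26 and 0.27 on SD. For the histidine members it was -0.33, -0.08, -0.03, -0.46 and -0.65 on LD, against 0.59, 0.37, 0.11, 0.45 and 0.02 on SD. LD_442 was thus the lowest mouse for tyrosine and the highest LD mouse for histidine, and LD_515 was the lowest for histidine. The 9 members together summed to 3385 to 4731 CPM on LD and 5659 to 6128 CPM on SD.

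**Figure D3:**
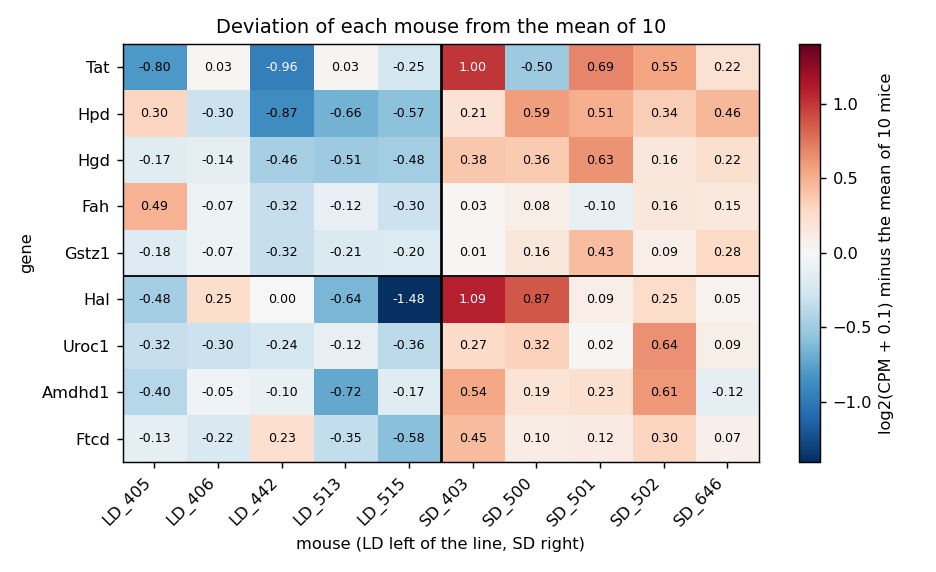
Deviation of each mouse (columns, LD left of the line and SD right) from the 10-mouse mean for each member (rows), in log2(CPM + 0.1) units, blue for lower and red for higher. The deepest blue is Hal in LD_515 (-1.48), the deepest red Hal in SD_403 (1.09), and Fah in LD_405 is the strongest red among the LD mice (0.49).

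Set against transcript length (the longest protein-coding transcript of GENCODE M21, from 1404 bases for Hpd to 5319 for Hal), the order of mean levels on LD was Hpd with 890.0 CPM per kilobase, Gstz1 with 348, Fah with 319, Tat with 181, Ftcd with 149.8, Hgd with 126, Uroc1 with 81.8, Amdhd1 with 75.1 and Hal with 31.8. On SD the levels were 1536 CPM per kilobase for Hpd, 457 for Gstz1, 342 for Fah, 316 for Tat, 205 for Hgd, 198 for Ftcd, 119.9 for Uroc1, 112 for Amdhd1 and 59.0 for Hal. Hgd and Ftcd thus changed places, but their ranges overlapped on both diets (112 to 145 and 113 to 199.6 on LD, 178 to 248 and 178 to 232 on SD). Between neighbours in the LD order, ranges were apart for Hpd (624 to 1408) above Gstz1 (318 to 379), Fah (261 to 457) above Tat (117 to 233), Hgd above Uroc1 (76.4 to 90.6), and Amdhd1 (55.0 to 87.1) above Hal (14.6 to 48.4). The other neighbours overlapped.

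The tyrosine route also depends on genes outside the 9. Hydroxylation of aromatic amino acids needs the cofactor tetrahydrobiopterin, and Qdpr, the reductase that regenerates it, fell to 281 ± 63.1 CPM on LD, against 503 ± 78.9 CPM on SD (log2 change -0.86, adjusted p = 0.0357). Qdpr measured 327, 367, 219, 248 and 243 CPM on LD, against 609, 494, 549.6, 407 and 456 CPM on SD, without overlap. Of 7 tested cofactor genes 1 fell and 0 rose, with a median log2 change of -0.02. The synthesis enzymes Pts (-0.47, adjusted p = 0.218) and Spr (0.38, adjusted p = 0.337) and the feedback regulator gene Gchfr (-0.22, adjusted p = 0.798) did not pass.

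Among 7 other enzymes that act on aromatic amino or keto acids 1 fell and 0 rose, with a median log2 change of 0.07. Got1, the cytosolic aspartate aminotransferase, which can also act on aromatic amino acids, fell to 112 ± 33.2 CPM on LD, against 239.6 ± 64.3 CPM on SD (log2 change -1.10, adjusted p = 0.0290). The values, apart between the diets by a narrow margin, were 104, 169, 86.1, 91.2 and 111 CPM on LD, against 339, 176, 237, 254 and 192 CPM on SD. The tautomerase and cytokine gene Mif stood at 125 ± 37.6 and 78.3 ± 19.7 CPM on LD and SD (adjusted p = 0.175), and the aminotransferase Kyat3 at 270.5 ± 40.2 and 197 ± 30.8 CPM (adjusted p = 0.178). Il4i1, an amino acid oxidase gene of immune cells, averaged 0.457 ± 0.378 CPM on LD and 1.58 ± 1.10 CPM on SD (adjusted p = 0.199).

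Histidine has other uses, and of 7 tested genes for them (9 in the table) 1 fell and 0 rose, with a median log2 change of 0.13. Hnmt, which inactivates histamine by methylation with S-adenosylmethionine, fell to 8.03 ± 1.013 CPM on LD, against 15.6 ± 2.34 CPM on SD (log2 change -0.94, adjusted p = 0.0259). It measured 7.35, 9.66, 7.502, 7.26 and 8.35 CPM on LD, against 17.2, 16.4, 17.4, 11.7 and 15.1 CPM on SD. Log2 differences of the mitochondrial and cytosolic histidyl-tRNA synthetase genes Hars2 and Hars were -0.22 (adjusted p = 0.600) and 0.19 (adjusted p = 0.681), and that of the carnosine synthase gene Carns1 was 0.32 (adjusted p = 0.743). None of the 5 LD values of Hnmt reached the SD range. The calls of Qdpr, Got1 and Hnmt were lost in 11, 8 and 10 of 22 alternative settings.

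Folate enzymes that handle the group released by Ftcd were lower without passing, with 0 of 6 called by limma (2 at an unadjusted p under 0.05) and a median log2 change of -0.35. Aldh1l1, which oxidises formyl-tetrahydrofolate, came nearest at 515.5 ± 118 CPM on LD and 876 ± 120.2 CPM on SD (log2 difference -0.79, adjusted p = 0.0523). The 5 LD values, from 370.5 to 614 CPM, all lay below the SD values, from 740.3 to 1061 CPM. The log2 differences of Mthfd1, which interconverts folate forms, and Mthfs, which returns formyl-tetrahydrofolate to use, were -0.35 (adjusted p = 0.368) and -0.31 (adjusted p = 0.542).

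Other amino acid routes gave the following counts. Of 8 urea cycle and glutaminase genes 4 fell and 0 rose, with a median of -0.90. These were the liver glutaminase Gls2 (log2 change -1.69, adjusted p = 0.00394), the ornithine carbamoyltransferase Otc (-0.82, adjusted p = 0.0128), the mitochondrial ornithine carrier Slc25a15 (-1.010, adjusted p = 0.0141) and the carbamoyl phosphate synthetase Cps1 (-0.98, adjusted p = 0.0376, lost in 12 of 22 alternative settings). Of 11 lysine and tryptophan genes 1 fell and 0 rose (the lysine-degrading enzyme Aass, log2 change -1.35, adjusted p = 0.0114), with a median of -0.63, and of 15 branched-chain genes 0 were called by limma (6 lower at an unadjusted p under 0.05), with a median of -0.22. Differences were negative in 8 of 8 urea cycle and glutaminase genes, 11 of 11 lysine and tryptophan genes and 13 of 15 branched-chain genes. At an unadjusted limma p under 0.05, 5 of the 8 and 7 of the 11 were lower. The medians of the tyrosine members (-0.70) and histidine members (-0.56) lie between those of the urea cycle and the branched-chain genes. The lists were chosen with earlier results of these data known, and no test of one list against another was made.

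**Figure D4:**
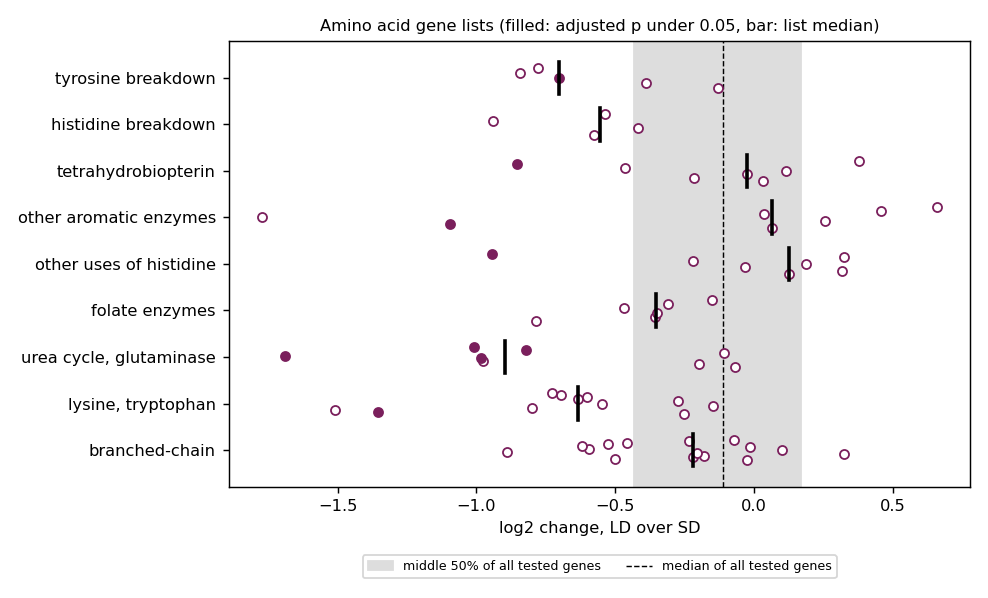
Log2 change, LD over SD, of each tested gene (points) in 9 amino acid gene lists (rows), with filled points for an adjusted p under 0.05 and a bar at each list's median. The tyrosine and histidine medians are at -0.70 and -0.56, the urea cycle median at -0.90, and the shaded band holds the middle 50% of all tested genes.

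Hormone-responsive genes and regulators known to act on such enzymes gave few calls. Of 9 glucocorticoid-responsive genes 1 rose and 0 fell, with a median log2 change of 0.37. The riser was Lpin1, a phosphatidate phosphatase, at 139.6 ± 32.0 CPM on LD and 42.1 ± 15.2 CPM on SD (adjusted p = 0.00360). The glucocorticoid receptor co-chaperone gene Fkbp5 stood at 64.9 ± 18.5 and 32.2 ± 11.7 CPM on LD and SD (log2 difference 1.03, adjusted p = 0.0624), while the receptor gene Nr3c1 itself was at 40.4 ± 16.04 and 57.3 ± 10.03 CPM (-0.62, adjusted p = 0.325). Per1 and Dusp1 differed by 1.06 (adjusted p = 0.157) and -0.97 (adjusted p = 0.278). Of 10 transcription regulators 0 were called by limma (1 lower at an unadjusted p under 0.05), with a median of 0.02, and neither Crem (-0.67, adjusted p = 0.218) nor Cebpb (0.49, adjusted p = 0.329) passed.

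Of 14 clock genes 1 rose (Ciart, a clock repressor, log2 change 2.89, adjusted p = 0.0449) and 0 fell, and the call of Ciart was lost in 13 of 22 alternative settings. The median of 0.37 covers differences of both signs, 3 negative and 11 positive. The activator gene Arntl differed by -2.60 (adjusted p = 0.0904) and its relative Npas2 by -1.76 (adjusted p = 0.175), while the repressor gene Per1 differed by 1.06 (adjusted p = 0.157). Arntl measured 0.102, 0.485, 0.982, 1.27 and 1.81 CPM on LD, against 21.3, 5.54, 5.69, 2.88 and 1.22 CPM on SD. Dbp measured 396, 276, 138, 179 and 89.9 CPM on LD, against 1.90, 64.5, 63.4, 129.7 and 145 CPM on SD (log2 difference 2.12, adjusted p = 0.346). The diets overlapped in both genes, with SD_646 lowest of the SD mice in Arntl and highest in Dbp. The part of these differences in the members' values was not tested.

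Liver enzymes are arranged along the lobule, and Hal is known as a periportal gene. Of 8 periportal markers 2 fell and 0 rose (Gls2, given above, and the aldehyde dehydrogenase Aldh1b1, log2 change -1.43, adjusted p = 0.0343, lost in 8 of 22 alternative settings), with a median of -0.58. Next by p came the protease gene Ctsc (log2 difference -1.14, adjusted p = 0.0918) and the serine dehydratase gene Sds (-0.77, adjusted p = 0.405), and 6 of the 8 differences were negative. The summed level of the 8 was 2599 to 5413 CPM on LD and 4228 to 6048 CPM on SD. Most of that sum came from the gluconeogenic enzyme Pck1, with means of 1880.4 CPM on LD and 1826 CPM on SD, and the antibody receptor gene Pigr, with 1367 CPM on LD and 1795 CPM on SD, both outside the naming rule and given for their share of the sum. Of 10 pericentral markers 0 were called by limma (2 lower and 1 higher at an unadjusted p under 0.05), with a median of -0.05 and a summed level of 7198 to 9192 CPM on LD and 3935 to 9961 CPM on SD. The low SD value was that of SD_403, and the other SD mice had 7525 to 9961 CPM. Most of this sum came from Cyp2e1, also outside the naming rule, with means of 5066 CPM on LD and 4797 CPM on SD. The part of the lobule in the results on Hal was not tested.

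The genes whose deviations over the 10 mice came nearest to the mean profile of the tyrosine members, by root mean square difference in log2 units among 11560 protein-coding genes, were Slc22a18 (0.116), Gjb1 (0.134), Gstm7 (0.142), Dusp19 (0.147) and Mocos (0.158). The tyrosine members themselves lay 0.140 (Hgd) to 0.428 (Tat) from that profile, and the median gene 0.536. Slc22a18, an organic cation transporter-like gene, stood at 91.4 ± 17.0 CPM on LD and 139 ± 11.8 CPM on SD (adjusted p = 0.0854). Nearest to the histidine members were Mib2 (0.144), Hsd3b7 (0.146), Nipal3 (0.156), Carhsp1 (0.162) and Mccc2 (0.168), with the members at 0.161 (Ftcd) to 0.373 (Hal) and the median gene at 0.526. Hsd3b7, an enzyme of bile acid synthesis, was at 304 ± 21.4 CPM on LD and 455 ± 46.3 CPM on SD (adjusted p = 0.0617). None of these 10 genes passed the threshold, and none is given here as sharing a function with the members.

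**Figure D5:**
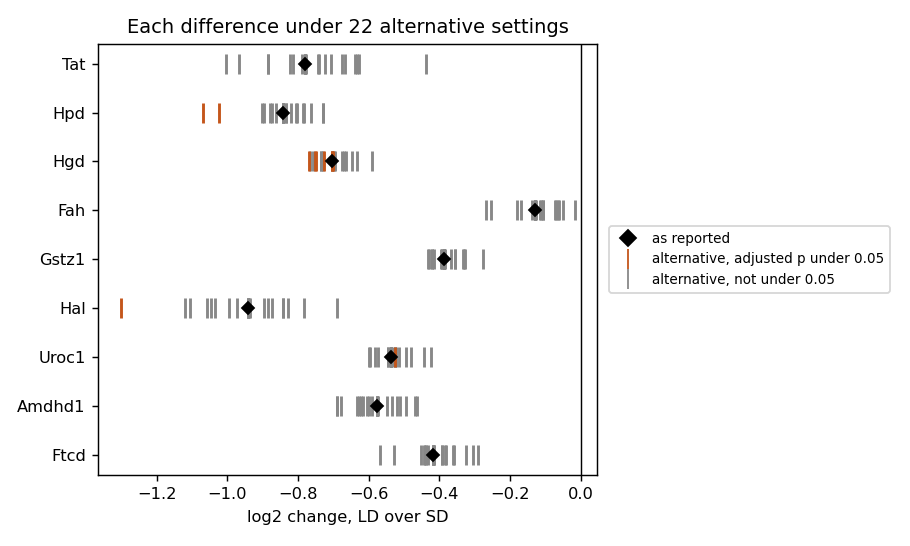
Log2 change, LD over SD, of each member (rows) as reported (diamonds) and under 22 alternative settings (ticks), with orange ticks for an adjusted p under 0.05. Every tick lies left of 0, from -1.30 for Hal to -0.02 for Fah, and orange ticks occur for Hpd, Hgd, Hal and Uroc1.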

How the data were processed

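Poly-A selected liver RNA of 10 mice was sequenced, and the deposited table holds CPM from the authors, whose lowest value, 0.0001, was taken as an amount added to every cell. STAR, Partek and the mm39 genome are named, without versions, in the submitters' processing notes; the quantifier, annotation and any filter are not given in the sources used here. The 0.0001 was subtracted. Low values came within 0.1 of a whole number of reads in 84.5% to 87.9% of cases, so CPM was not treated as counts, and depth is an estimate that covers counting error only. Diets were compared by limma 3.58.1 (R 4.3.3, trend and robust, two-sided) on log2(CPM + 0.1) over 13157 genes (mean CPM of 1 or more), with Benjamini-Hochberg adjustment over all of them at 0.05. Folds are LD over SD on that scale. Ratios used exact permutation over 252 assignments of the 10 mice. The fit was tested on simulated data, drawn with independent noise for each gene and library. Those data held no shifts shared by many genes of a library, so that test does not cover such shifts. Members and lists were chosen with earlier results of these data known. All members, up to 4 genes per list by smallest p, and 5 genes nearest each route's profile are named; some genes so taken are not reported here. Alternatives covered pseudocounts, filters, scalings, moderation, library weights, the leading digit of the mouse number and omission of mice. Gene positions were read from the deposited table (mm39). Promoter sequences are from RefSeq, GRCm38.p6. The labels name no cage or batch.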

Additional observations from a re-analysis of the deposited data

Results flagged for a closer look

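Fah in LD_405, at 724 CPM, lay far from the other 4 LD mice, of which the nearest had 493 CPM. The gap was 0.745 of the range of the LD group, above the critical value of 0.71 for 5 mice. It was the 1 value so found in 18 groups tested (9 members on 2 diets), and chance marks about 1 in 20 such groups.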

How the results depend on the processing

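The 9 differences kept a negative sign in all 22 alternatives, and 0 members were called higher in any. The number of members called lower was 0 without a filter on low values, with median-of-ratios scaling, without trend and robust moderation, and, in 3 alternatives chosen after seeing the data, with scaling that leaves out the 20 most abundant genes, without LD_406 and LD_515 (the lowest in endothelial, Kupffer and lymphocyte markers) and without SD_403 and SD_646 (the highest in neutrophil markers). It was 3 with weights per library (Hpd, Hgd and Uroc1) and 0 to 2 when each mouse was left out in turn. With the leading digit of the mouse number as a covariate Hal was called in place of Hgd (log2 change -1.30, adjusted p = 0.0361). That covariate set LD_405, LD_406, LD_442 and SD_403 against all other mice, so it was unevenly split between the diets. The count of all genes called, 249, was 805 with library weights, 130 with the covariate, 17 without LD_406 and LD_515, 36 without SD_403 and SD_646, and 87 to 380 with each mouse left out. Fewer mice entered the fit in the 17 and 36 cases and with each mouse left out. The cause of the changes in these counts was not tested. The difference in the Hal to Ftcd ratio ran from -0.70 to -0.36 with each mouse left out, and passed only without LD_406. No paired analysis was possible because no mouse number occurs on both diets. The difference in the Tat to Gstz1 ratio ran from -0.61 to -0.19 in the same way. The smallest member value rests on about 2021 reads, and no other group size was tried.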
